A study of Arabidopsis thaliana with 12 samples.

Results

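The genes described here are 93 Arabidopsis thaliana genes that carry only a locus name in the array's probe table and that read lower in seedlings combining FUS3 expression with sucrose than in seedlings with either alone. They were chosen from measured values: x was log2(MAS5 signal + 16), averaged over the 3 arrays of each group. A member had to be the single gene of its probe set, average over 1000 in wild type with sucrose, and lie at least 0.8 lower in FUS3 than in WT with sucrose. The difference between FUS3 and WT without sucrose and the difference between WT with and without sucrose both had to lie within 0.3 of 0. Of 22746 tested probe sets, 11933 carried 1 locus-named gene, 2712 of those averaged over 1000 in WT with sucrose, and 1437 of those had both single differences within 0.3. From these 1437 the last condition took 93, or 6.47%, each a different locus with a single probe set. With each array's median subtracted the same rule took 87 genes, of which 61 were among the 93.

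Seedlings aged 8 days came from 1/2MS plates with 1.5% sucrose or with none. The FUS3 seedlings were the ESTpro:FUS3-strong line 2-8, a single transgenic line in which estradiol turns on FUS3, and their medium held 5 µM estradiol. The wild type is called WT, and whether its medium also held estradiol is not settled by the labels, so every FUS3 difference below is that of the induced line against WT. The 4 groups were FUS3 with sucrose, FUS3 without sucrose, WT with sucrose and WT without sucrose, with 3 arrays each, which the labels call biological replicates. Whole seedlings were measured on Affymetrix ATH1 arrays, so fewer cells of a type and less RNA per cell cannot be told apart, and the 3 arrays a group limit the precision of each value.

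FUS3 (FUSCA3) is a B3-domain transcription factor of developing seeds, where it promotes storage protein and oil accumulation and holds back vegetative traits. Sucrose in the medium feeds a seedling in addition to its own photosynthesis, and sugar is known to lower transcripts of photosynthesis genes in many plants. Green seedling tissue builds thylakoids, the chloroplast membranes that hold chlorophyll, antenna proteins and both photosystems, and a large share of the highly abundant nuclear transcripts of leaves serves them. The reference gene table adds a name for 4 of the 93 members, and no role is given to the other 89.

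Because the rule used all 4 group means, every difference among the groups is a description for these genes and was not tested. Over the 93 members the median log2 difference between FUS3 and WT with sucrose was -1.11, and the range ran from -2.64 to -0.80. Over all tested probe sets the same difference had a median of 0.01. On the linear scale the members' mean signal in FUS3 with sucrose was 15.7% to 57.5% of that in WT with sucrose, with a median of 45.9%. Under 50% remained for 62 members and under 25% for 6. The members together took 0.522% to 0.564% of the summed signal of an array in FUS3 with sucrose, against 1.27% to 1.34% in FUS3 without sucrose, 1.29% to 1.34% in WT with sucrose and 1.31% to 1.38% in WT without sucrose. The 3 arrays of FUS3 with sucrose stood apart from the other 9 in this share, and the ranges of the other 3 groups overlapped. Their median signals were 1157 in FUS3 with sucrose, 2576 in FUS3 without sucrose, 2620.3 in WT with sucrose and 2610.3 in WT without sucrose.

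**Figure D1:**
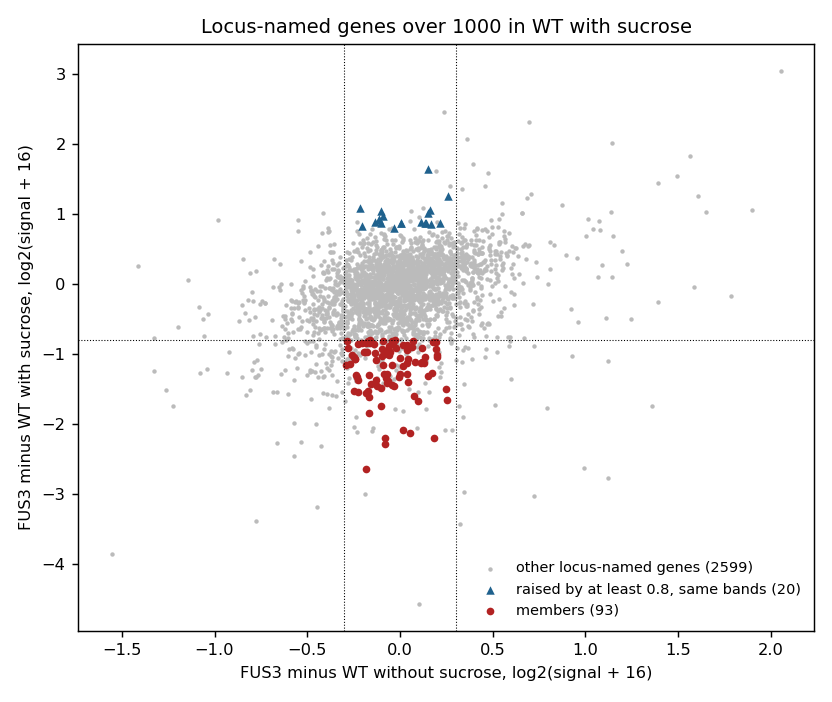
Differences in log2(signal + 16) between FUS3 and WT, without sucrose on the horizontal axis and with sucrose on the vertical axis, for 2712 locus-named genes averaging over 1000 in WT with sucrose. The 93 members lie at or below -0.8 on the vertical axis and between the dotted lines at -0.3 and 0.3 on the horizontal axis, and 20 genes lie at least 0.8 higher under the same limits.

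With the same limits and the sign of the last condition turned, 20 of the 1437 locus-named genes (1.39%) were at least 0.8 higher in FUS3 than in WT with sucrose. This count cannot be set against the 93, because the minimum of 1000 applies to WT with sucrose, where genes lower in FUS3 are high and genes higher in FUS3 are low. Of the 93, 42 averaged under 1000 in FUS3 with sucrose and entered through their signal in WT. A further 97 locus-named genes met the 3 difference conditions but averaged 1000 or less in WT with sucrose and are not members. Members were a larger share of the probe sets with high signal, which is a property of each probe set and not a transcript level on a common scale. They made up 4.31% of the locus-named genes averaging 1000 to 2000 in WT with sucrose (35 of 813), 8.42% of those from 2000 to 5000 (39 of 463), 10.9% of those from 5000 to 10000 (11 of 101) and 13.3% of those above 10000 (8 of 60). The median difference within these 4 classes was -1.03, -1.10, -1.33 and -1.32. The mean of WT with sucrose sets the classes and also enters the difference that chose the members. Nothing is therefore read from the trend over the classes.

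The fit of all 12 arrays, a linear model of the 4 groups in limma, called a probe set at a Benjamini-Hochberg adjusted p under 0.05 over the 22746 tested. All 93 members were called lower in FUS3 than in WT with sucrose, a contrast the rule used, where 19.6% of all tested probe sets were called lower. For sucrose against none in FUS3, 92 members were called lower beside 17.5% of all tested, and the interaction, the FUS3 difference with sucrose minus that without, was called lower for 91 beside 13.3% and higher for 0 beside 9.78%. For FUS3 against WT without sucrose 3 members were called lower, AT2G42690, AT2G26690 and AT3G57800, beside 7.03% of all tested, and 0 were called higher beside 9.5%. For sucrose against none in WT, 5 members were called lower beside 10.1% and 2 were called higher beside 15.9%, together 7 beside 26.0%. The 2 higher were AT2G26690 at 0.28 and AT5G48900 at 0.26, both inside the band of 0.3. Over all probe sets FUS3 against WT without sucrose gave 3758 calls, and 2418 without replicate 1 of WT without sucrose. The rule used every one of these contrasts, so nothing is read from the members' counts.

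Among all calls, the share of higher ones moved with the scaling. It was 57.5% for FUS3 against WT without sucrose, 61.1% for sucrose in WT and 55.6% for sucrose in FUS3. With each array's median subtracted these shares were 45.4%, 35.5% and 37.8%, and the 93 members were lower in FUS3 with sucrose than in WT with sucrose under every scaling run.

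On single arrays, 92 of the 93 members read lower in all 3 of FUS3 with sucrose than in any of the other 9. The same held for 14.0% of all tested probe sets. The rule chose the members by the group means of these same arrays, so nothing is read from the 92 beside the 14.0%. The exception among the members was AT2G39960. It had signals of 1039, 1124 and 1855 in FUS3 with sucrose, against 1716, 3215 and 2517 in WT with sucrose. Its signals without sucrose were 1800.5, 1541 and 2618 in FUS3 and 2330.3, 1708 and 2063 in WT. Replicate 3 of FUS3 with sucrose was the high array of its group, and it lay inside the range of each of the other 3 groups. The median SE of the members' difference between FUS3 and WT with sucrose was 0.10, from 0.06 to 0.25, against a median of 0.15 over all tested probe sets.

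**Figure D2:**
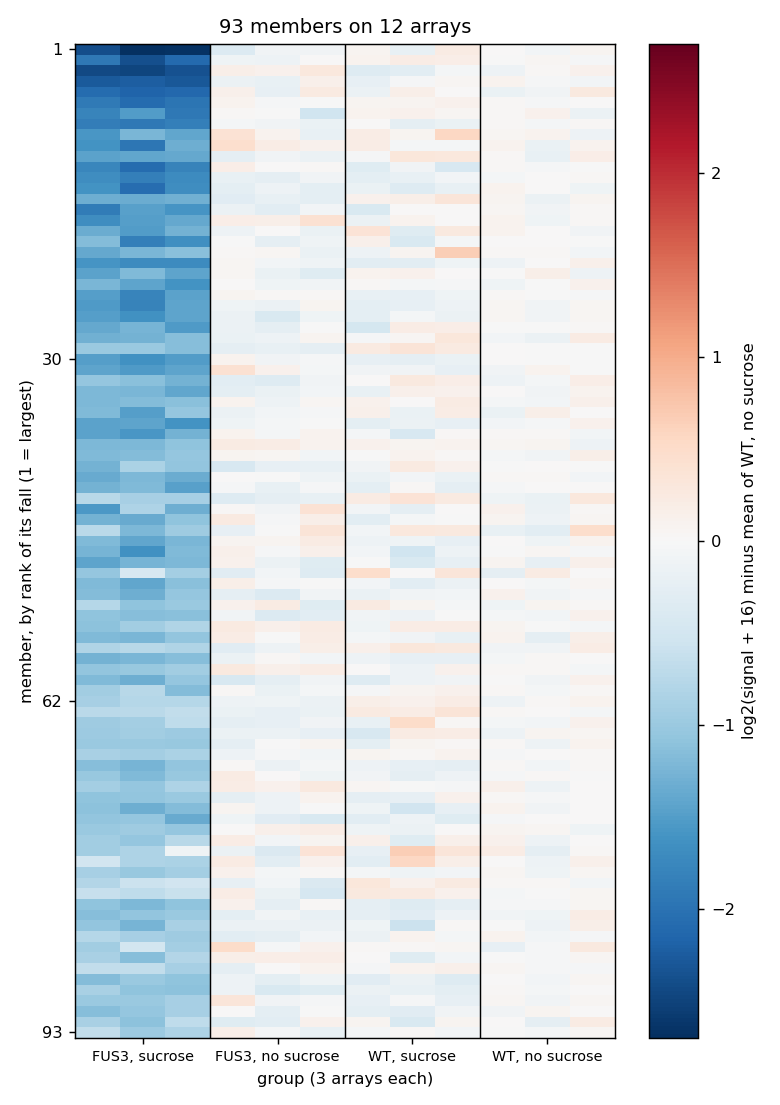
Each row is 1 of the 93 members, ordered by its difference between FUS3 and WT with sucrose, and each column is 1 of the 12 arrays. Colour gives log2(signal + 16) minus the gene's mean in WT without sucrose, blue for lower and red for higher, and the 3 columns of FUS3 with sucrose hold the darkest blue.

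Among the members with a further name, AT1G74470 encodes geranylgeranyl reductase, the enzyme that saturates the geranylgeranyl chain to give the phytyl tail of chlorophyll and of tocopherol. It read 9726, 10818 and 9776 in FUS3 with sucrose, against 21938, 23839 and 21897 in WT with sucrose. Its signals without sucrose were 24947, 24728 and 23088 in FUS3 and 25472, 25548 and 23821 in WT. The 3 arrays of FUS3 with sucrose were lower than all others. The log2 difference from WT with sucrose was -1.16 (SE 0.07), and 44.8% of the WT signal remained. AT1G52220 is CURT1C (CURVATURE THYLAKOID 1C), of a small protein family that bends thylakoid membranes at the margins of their stacks. With sucrose it read 4150.0, 3459 and 4485 in FUS3, against 10064, 10379 and 11030.2 in WT. Without sucrose it read 11146, 10859.8 and 12745 in FUS3 and 12465, 11233 and 12550.1 in WT. The difference with sucrose was -1.38 (SE 0.10). Every array of FUS3 with sucrose was under the other 9, and FUS3 without sucrose overlapped both WT groups.

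Both other named members are transporter genes of the NRT1/PTR family (NPF), whose proteins carry nitrate, peptides, hormones and other small compounds. NPF6.4 (AT3G21670) read 553, 566 and 541 in FUS3 with sucrose, against 2324, 2654 and 2791 in WT with sucrose. In the absence of sucrose it read 2417, 2337 and 2974 in FUS3 and 2886, 2662 and 2579.7 in WT. Its difference with sucrose of -2.19 (SE 0.10) was the fourth in size of the 93, and the FUS3 line kept 21.4% of the WT signal. NPF6.2 (AT2G26690) read 1082, 1071 and 967 in FUS3 with sucrose, against 2566, 2779 and 2571 in WT with sucrose. Seedlings without sucrose gave 1828, 1879 and 1831 in FUS3 and 2177, 2169 and 2163 in WT. Here the difference with sucrose was -1.33 (SE 0.07), and NPF6.2 was the member called in both single conditions, lower by 0.23 in FUS3 without sucrose and higher by 0.28 with sucrose in WT.

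The relatives of these named members were counted after the members were known. Of the 9 other NPF genes with a single-gene probe set, 3 were lower in FUS3 than in WT with sucrose by limma and 0 were higher, beside 19.6% and 18.9% of all tested probe sets. At an unadjusted p under 0.05 the counts were again 3 lower and 0 higher, and without the trend in eBayes 1 was called higher. The 3 lower genes were NPF4.3 (AT1G59740) at -1.41 (SE 0.12, adjusted p = 3.67e-07), NPF3.1 (AT1G68570) at -1.39 (SE 0.14, adjusted p = 1.90e-06) and NPF4.4 (AT1G33440) at -0.71 (SE 0.18, adjusted p = 0.00560). The median of the 9 was 0.07, and GTR1 and GTR2, glucosinolate transporter genes of the same family, had -0.10 (SE 0.08) and 0.07 (SE 0.12). Of the CURT1 relatives, CURT1A (AT4G01150) was lower by limma at -0.74 (SE 0.09, adjusted p = 9.33e-06) and CURT1D (AT4G38100) was higher at 0.47 (SE 0.07, adjusted p = 7.45e-05).

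The 3 largest differences belonged to members without a further name. AT5G57345 had the largest, -2.64 (SE 0.12). On the arrays of FUS3 with sucrose it read 725, 545 and 596, against 4041, 3352 and 4482 in WT with sucrose. On those without sucrose it read 2991, 3636 and 3619.8 in FUS3 and 3887, 3659 and 4039.9 in WT. The FUS3 line with sucrose kept 15.7% of the WT signal, and the lowest of the other 9 arrays was replicate 1 of FUS3 without sucrose. AT3G61870 followed at -2.29 (SE 0.10). Seedlings with sucrose gave 1913, 1396 and 1699.8 in FUS3, against 7822, 8345 and 8280.3 in WT. For the same gene the arrays without sucrose read 6748, 6629.5 and 7373 in FUS3 and 7264, 7544 and 7089 in WT. Every array of FUS3 with sucrose was under the other 9, among which WT with sucrose was the highest group.

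AT1G22690 was the third, with -2.19 (SE 0.09). It read 1456, 1415 and 1548 in FUS3 with sucrose, against 6239, 6548 and 7662 in WT with sucrose. Its arrays without sucrose gave 8891, 8632 and 9655 in FUS3 and 7219, 8107 and 8678 in WT. The arrays of FUS3 without sucrose were above all arrays of WT with sucrose, and those of FUS3 with sucrose were under both. AT1G65490 read 959, 904 and 935 in FUS3 with sucrose, against 3690.2, 4564 and 4099 in WT with sucrose. On medium without sucrose it read 4485, 3528 and 4835 in FUS3 and 3609, 3858 and 4923 in WT. This gave -2.12 (SE 0.13), with 0.05 for FUS3 without sucrose and a sucrose difference in WT of 0.0034, and the other 3 groups overlapped. AT2G34620 read 906, 804 and 867 in FUS3 with sucrose, against 3637, 3658 and 3755 in WT with sucrose. The arrays without sucrose showed 3676, 3402 and 3444 in FUS3 and 3518, 3413 and 3466 in WT. Its difference was -2.08 (SE 0.07), the last of the 6 members beyond -2.

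**Figure D3:**
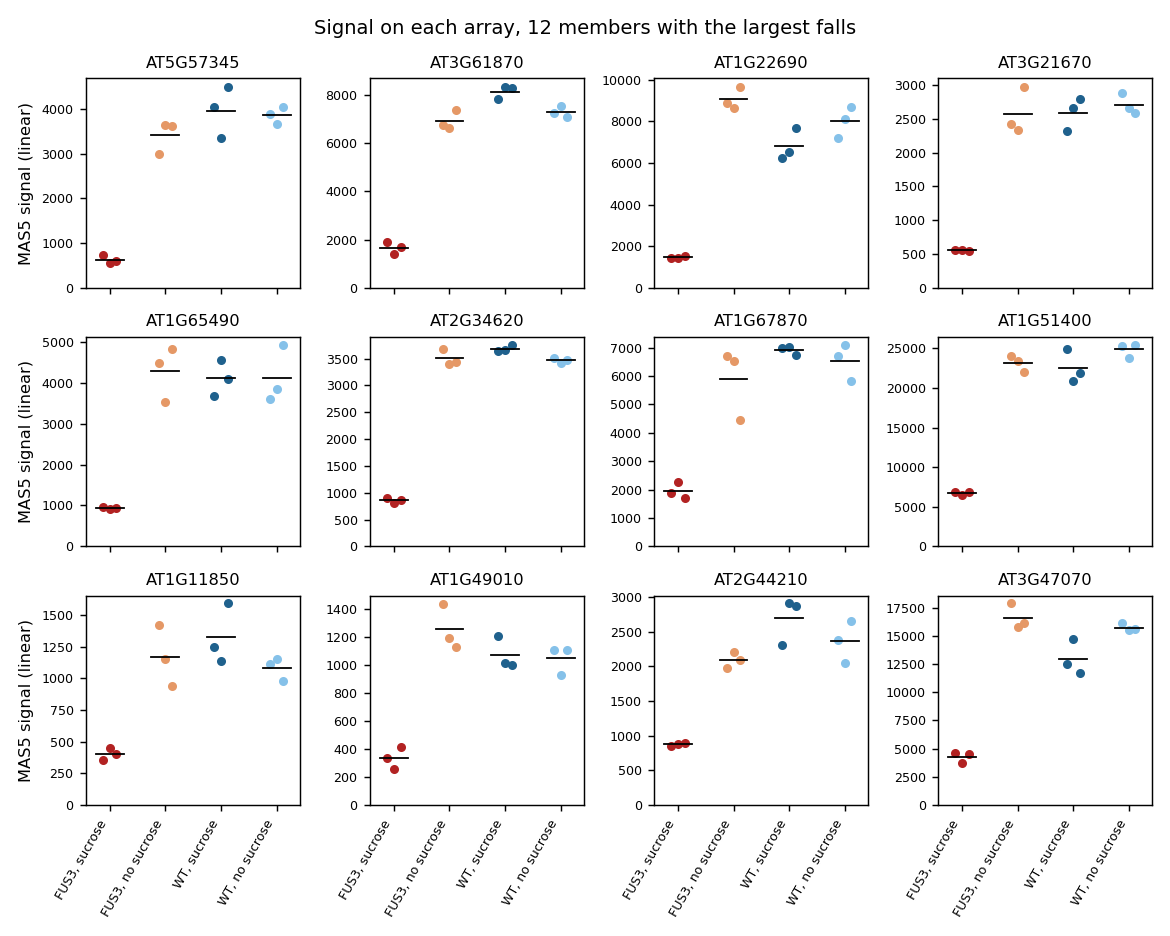
MAS5 signal on a linear axis from 0 for the 12 members with the largest differences between FUS3 and WT with sucrose, with a point for each array and a bar at each group mean of 3 arrays. In every panel the 3 points of FUS3 with sucrose lie under the other 9, and the WT groups and FUS3 without sucrose differ less among themselves.

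From -2 to -1.5 there were 10 further members. AT1G67870 read 1876, 2267 and 1694 in FUS3 with sucrose, against 6987, 7020.0 and 6751 in WT with sucrose (log2 difference -1.83, SE 0.14). AT1G51400 read 6835, 6480.3 and 6903 in FUS3 with sucrose, against 24944, 20855 and 21905 in WT with sucrose (log2 difference -1.74, SE 0.08). AT1G11850 read 353, 453 and 401 in FUS3 with sucrose, against 1245, 1135 and 1594 in WT with sucrose (log2 difference -1.67, SE 0.15). In each of these 3 genes the arrays of FUS3 with sucrose were under all the others. AT1G49010 read 332, 259 and 410.0 in FUS3 with sucrose, against 1206, 1009.8 and 1002 in WT with sucrose (log2 difference -1.66, SE 0.15). AT2G44210 read 847, 878 and 891 in FUS3 with sucrose, against 2307, 2916 and 2867 in WT with sucrose (log2 difference -1.60, SE 0.10). AT3G47070 read 4594, 3720.1 and 4506 in FUS3 with sucrose, against 12522, 14708 and 11706 in WT with sucrose (log2 difference -1.60, SE 0.10). Of these, AT3G47070 was also called lower with sucrose in WT, by 0.28, near the edge of the band. AT5G37360 read 1550.1, 1368 and 1518 in FUS3 with sucrose, against 4134, 4312 and 4725 in WT with sucrose (log2 difference -1.56, SE 0.07). AT3G13980 read 391, 282 and 375 in FUS3 with sucrose, against 1089, 958 and 1071 in WT with sucrose (log2 difference -1.54, SE 0.12). The signals of AT3G13980 in WT with sucrose were close to the minimum of 1000 that the rule set. AT2G42690 read 1802, 1766 and 1816 in FUS3 with sucrose, against 4922, 5006 and 5691 in WT with sucrose (log2 difference -1.53, SE 0.08). AT1G71480 read 439, 594 and 541 in FUS3 with sucrose, against 1262, 1678 and 1685 in WT with sucrose (log2 difference -1.52, SE 0.13). In all 10 the highest array of FUS3 with sucrose was under the lowest of WT with sucrose.

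The next members in order were smaller in difference. AT5G03120 averaged 352 ± 37.8 in FUS3 with sucrose and 1018 ± 96 in WT with sucrose (SD, n = 3 each). AT5G01015 averaged 531 ± 42.4 in FUS3 with sucrose and 1534 ± 369.6 in WT with sucrose. For AT2G34510 the means were 756 ± 192 in FUS3 and 2086 ± 392 in WT, both with sucrose. These genes kept 34.6%, 34.6% and 36.3% of the WT signal, in that order. AT3G62820 averaged 498 ± 45.2 in FUS3 with sucrose and 1429.6 ± 445 in WT with sucrose. For AT3G01060 they were 887 ± 36.3 in FUS3 and 2435 ± 177 in WT, both with sucrose. AT4G27280 averaged 1246 ± 123 in FUS3 with sucrose and 3374 ± 122 in WT with sucrose. In these 3 genes too the arrays of FUS3 with sucrose were under all 9 others. AT1G62250 averaged 731 ± 97.8 in FUS3 with sucrose and 1959 ± 51.4 in WT with sucrose. For AT5G48790 the means were 1813 ± 134 in FUS3 and 4690.3 ± 326 in WT, both with sucrose. AT5G65840 averaged 837 ± 83.3 in FUS3 with sucrose and 2217 ± 539 in WT with sucrose. Log2 differences of these 9 genes lay from -1.49 to -1.36. AT5G19250 averaged 1996 ± 103 in FUS3 with sucrose and 5115 ± 627 in WT with sucrose. AT2G42220 averaged 3575 ± 191 in FUS3 with sucrose and 8980.3 ± 155 in WT with sucrose. Like AT3G47070, AT2G42220 was called lower with sucrose in WT, by 0.21.

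Members averaging over 10000 in WT with sucrose numbered 8. The highest signal of the 93 belonged to AT2G26500, which read 13074, 10576 and 13305 in FUS3 with sucrose, against 31799, 31468 and 33565 in WT with sucrose. Its arrays without sucrose read 38466, 37096 and 37300.2 in FUS3 and 37448, 36379.7 and 35586 in WT. The difference with sucrose was -1.40 (SE 0.09), and WT with sucrose was itself under both groups without sucrose. The other 7 were AT1G51400, AT1G74470, AT1G11860, AT3G47070, AT3G50685, CURT1C and AT1G74730, with differences from -1.74 to -0.82. AT1G11860, the smallest of the 8 differences, read 9462, 7876 and 10102 in FUS3 with sucrose, against 17719, 13982 and 16679.9 in WT with sucrose (log2 difference -0.82, SE 0.10). In FUS3 with sucrose 2 members still averaged over 10000 and 42 were under 1000, against 8 and 0 in WT with sucrose.

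At the threshold the list has no gap. Just inside lay AT5G17670 at -0.803, AT3G27050 at -0.801 and AT2G47440 at -0.8004. Just outside, meeting every other condition, lay AT3G44620 at -0.799, AT5G58330 at -0.799 and AT2G34460 at -0.798. AT5G58330 read 3943, 4018 and 4076 in FUS3 with sucrose, against 7222, 7054 and 6711 in WT with sucrose, and its arrays separated as fully as those of the members inside. In size 16 members were beyond -1.5, 61 beyond -1 and 32 between -1 and the threshold.

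Within the bands that the rule allowed, the members were not centred exactly on 0. Their median was -0.07 for FUS3 against WT without sucrose, with 61 below 0 and 32 above, and -0.03 for sucrose against none in WT, with 53 below 0 and 40 above. In 34 members both single differences were below 0 and in 13 both were above. The median difference between FUS3 and WT with sucrose was -1.05 in those 34 and -1.17 in those 13. It was -1.10 in the 19 with only the FUS3 difference above 0 and -1.16 in the 27 with only the sucrose difference above 0. The mean of WT with sucrose enters both this difference and the sucrose difference in WT. The rule used both, so nothing is read from these medians. Sucrose against none in FUS3 had a median of -1.15, from -2.61 to -0.41, and the interaction a median of -1.12, from -2.46 to -0.52. The combined condition set against the one with neither, FUS3 with sucrose minus WT without sucrose, had a median of -1.17.

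The members' deviations from their group means differed between arrays of a group. The mean deviation over the 93 members ran from -0.05 in replicate 2 of FUS3 without sucrose, where 63 were below their group mean, to 0.05 in replicate 3 of WT with sucrose, where 65 were above. Replicate 3 of WT without sucrose also had 65 above. The mean deviation was negative in replicate 2 of all 4 groups, from -0.05 to -0.01, and positive in replicate 3 of all 4 groups, from 0.02 to 0.05. In the locus-named genes of the same band that are not members, the mean deviations ran from -0.0053 to 0.0049. What these shifts come from was not tested.

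The members lay on all 5 nuclear chromosomes, as their locus names give them: 27 on chromosome 1, 18 on 2, 18 on 3, 7 on 4 and 23 on 5. As a share of the locus-named genes in the band these were 7.44%, 8.37%, 6.12%, 3.21% and 6.63%. A single pair was adjacent in the gene table, AT1G11850 (-1.67) and AT1G11860 (-0.82). Of the genes next to a member, 80 that are not members were measured. By limma, 22 of these were lower in FUS3 than in WT with sucrose (27.5%) and 15 were higher (18.8%), and their median was -0.05. Among all 12131 measured named nuclear genes that are not members, these neighbours included, 17.4% were lower and 19.1% higher, with a median of 0.03. The neighbours with the largest lower values were AT5G19240, next to AT5G19250, at -1.73 (SE 0.16, adjusted p = 1.01e-06) and AT5G03130, next to AT5G03120, at -1.42 (SE 0.19, adjusted p = 4.16e-05). The neighbours were counted after the members were known, and these 2 were named after their values were seen.

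The same thresholds were applied to genes with an ordinary symbol. Of 278 such genes in the band 24 met them (8.63%, beside 6.47% of the locus-named genes, a difference that was not tested), with 6 probe sets of several genes and 147 without a name besides, so that 270 probe sets met them in all. The 24 are a description in the same way, since the thresholds chose them. The 8 with the largest differences are given here. LHCB4.2, a minor antenna protein of photosystem II, averaged 9744 ± 959 in FUS3 with sucrose and 30337 ± 623 in WT with sucrose (SD, n = 3 each). PSAN, a lumenal subunit of photosystem I, averaged 8216 ± 802 in FUS3 with sucrose and 23797 ± 385 in WT with sucrose. The plastid gene rbcL, for the large subunit of Rubisco, averaged 2556 ± 283 in FUS3 with sucrose and 6695 ± 746 in WT with sucrose. These 3 genes had differences of -1.64, -1.54 and -1.38. Of the other 5, the difference was -1.49 for HAT2, a homeodomain-leucine zipper factor, -1.34 for ATSPS4F, a sucrose phosphate synthase, and -1.34 for SWEET17, a fructose transporter of the vacuole membrane. LrgB followed at -1.32 and AILP1 at -1.29.

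Lists of named genes, matched by symbol and not by how they moved, show where the chloroplast genes outside the members stood. Of 8 measured genes for photosystems and antennae, 7 fell in FUS3 relative to WT with sucrose by limma and 0 rose, also at an unadjusted p under 0.05, with a median of -0.88. Over all tested probe sets 19.6% were lower and 18.9% higher, with a median of 0.01. Of the 8, 4 had met the thresholds described above and are not independent of them. Without sucrose 0 of the 8 fell and 1 rose, and at an unadjusted p 1 fell and 1 rose. LHCB4.2 had -1.64 (SE 0.08, adjusted p = 1.26e-09), PSAN -1.54 (SE 0.09, adjusted p = 7.15e-09) and LHCB4.1 -1.18 (SE 0.07, adjusted p = 1.89e-08). LHCB4.3 was not called with sucrose: it read 2234, 2209.9 and 2673 in FUS3 with sucrose, against 2513, 2178 and 3071 in WT with sucrose, and 2239, 2465 and 2925 in FUS3 without sucrose, against 887, 1062 and 1298 in WT without sucrose. Its difference was -0.12 (SE 0.15, adjusted p = 0.595) with sucrose and 1.23 (SE 0.15, adjusted p = 7.93e-05) without, so it was WT without sucrose that stood low.

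**Figure D4:**
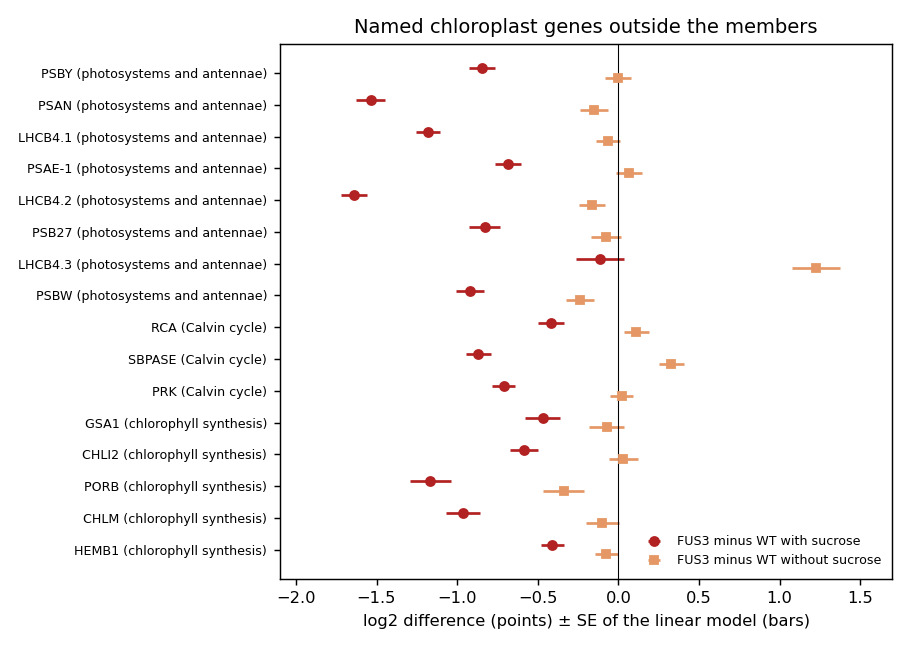
Log2 differences between FUS3 and WT (points) with the SE of the linear model (bars), with sucrose in red and without sucrose in orange, for the 16 named genes of photosystems and antennae, the Calvin cycle and chlorophyll synthesis. All 16 red points lie left of 0, and LHCB4.3 has an orange point far to the right, at 1.23.

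The 3 measured Calvin cycle genes fell in FUS3 relative to WT with sucrose: SBPASE, sedoheptulose bisphosphatase, at -0.87 (SE 0.08, adjusted p = 6.14e-07), PRK, phosphoribulokinase, at -0.71 (SE 0.07, adjusted p = 2.47e-06) and RCA, Rubisco activase, at -0.42 (SE 0.08, adjusted p = 0.000787). All 5 chlorophyll synthesis genes fell, with a median of -0.59. PORB, a protochlorophyllide reductase, was at -1.17 (SE 0.13, adjusted p = 5.5e-06), CHLM, a magnesium protoporphyrin methyltransferase, at -0.96 (SE 0.10, adjusted p = 4.39e-06) and CHLI2, a subunit of magnesium chelatase, at -0.59 (SE 0.09, adjusted p = 0.000122). For both lists 0 genes rose, also at an unadjusted p under 0.05. Without sucrose SBPASE rose, by 0.33 (SE 0.08, adjusted p = 0.00946), and no other of these 8 was called by limma. At an unadjusted p under 0.05, 1 chlorophyll synthesis gene was lower without sucrose. CLPP4, a subunit of the plastid Clp protease, was not called between FUS3 and WT in either medium, at an adjusted or an unadjusted p under 0.05. By limma it was called lower with sucrose than without, at -0.31 in WT (SE 0.10, adjusted p = 0.0341) and -0.58 in FUS3 (SE 0.10, adjusted p = 0.000284). The other gene that the symbol search for plastid proteases found, CLPB2, is named for a chaperone, and its group means of 4.23 to 7.77 lay under the 16 added before taking logs.

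Outside the chloroplast, counts are again read beside 19.6% lower and 18.9% higher over all tested probe sets. Of 23 expansin and xyloglucan enzyme genes, which loosen and remodel cell walls, 5 fell and 7 rose. EXPA20 was at 2.04 (SE 0.14, adjusted p = 4.06e-08), EXPA8 at -1.63 (SE 0.10, adjusted p = 1.16e-08) and XTH32 at -1.55 (SE 0.13, adjusted p = 2.51e-07). Of 9 tubulin and actin genes 3 fell and 1 rose, with TUB1 at 0.70 (SE 0.09, adjusted p = 3.76e-05), TUA1 at -0.59 (SE 0.09, adjusted p = 7.88e-05) and TUB6 at -0.51 (SE 0.09, adjusted p = 0.000305). Of 5 histone genes 1 fell, HON4 at -0.33 (SE 0.07, adjusted p = 0.00246), and 1 rose, HIS1-3, a drought-responsive linker histone, at 1.60 (SE 0.16, adjusted p = 1.99e-06). EXPA21, EXPA24 and ACT12 averaged under 16 in every group, so these lists hold genes with hardly any signal. No aquaporin gene was measured by a probe set of a single named gene.

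Markers of several tissues are given beside these results. The summed signal of 4 of 4 green tissue markers (RCA, LHCB4.1, PSAN and PRK) was 66186 to 70347 in FUS3 with sucrose, 134380 to 143550 in FUS3 without sucrose, 122000 to 125530 in WT with sucrose and 132500 to 147990 in WT without sucrose. Of these 4, LHCB4.1 and PSAN had themselves met the thresholds of the rule, and all 4 are in the lists above. This sum is therefore not independent of those results. For 4 of 6 seed markers (PAP85, OLEO3, AT1G03890 and AT3G15670) the sum was 90760 to 99064 in FUS3 with sucrose, 5913 to 7008 in FUS3 without sucrose, 90.1 to 126 in WT with sucrose and 135 to 168 in WT without sucrose. The trichome marker TRY, the 1 measured of 4, read 14.2 to 36.1 in FUS3 with sucrose, 83.4 to 101 in FUS3 without sucrose, 95.0 to 132 in WT with sucrose and 61.3 to 92.3 in WT without sucrose. The 2 measured of 4 root hair markers summed to 927 to 1143 in FUS3 with sucrose, against 571 to 631 in WT with sucrose. Without sucrose they summed to 438 to 637 in FUS3, against 245 to 299 in WT, so this sum was higher in FUS3 in both media. The 2 measured of 4 guard cell lineage markers, SPCH and MUTE, summed to 309 to 391 in FUS3 with sucrose, 384 to 465 in FUS3 without sucrose, 257 to 388 in WT with sucrose and 391 to 549 in WT without sucrose, and FUS3 overlapped WT in both media. The array's 25S rRNA control averaged 9915 ± 701 in FUS3 with sucrose, against 3491 ± 1023 in WT with sucrose (SD, n = 3 each). The 3'/5' signal ratio of actin was 21.7 ± 0.489 in FUS3 with sucrose, against 18.3 ± 1.44 in WT with sucrose. That of GAPDH was 1.01 ± 0.202 against 1.13 ± 0.18 and that of ubiquitin 2.28 ± 0.297 against 2.17 ± 0.136, and for both the arrays of these groups overlapped. The part of the marker, rRNA and actin ratio shifts in the members' lower signals was not tested. Across the 12 arrays the median signal was 375 to 442 and the trimmed mean 1000.08 to 1000.09.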

How the data were processed

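Total RNA of whole seedlings was hybridised to 12 Affymetrix ATH1 arrays, 3 in each of 4 groups. The authors deposited linear intensity values, MAS5 signals made with Affymetrix Expression Console per the submitters' processing notes, with no version given in the sources used here. Each array's trimmed mean is close to 1000, so the arrays had been scaled to a common level. MAS5 scaling assumes similar total signal, and a change in the whole RNA pool would not show.

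From these signals, log2(signal + 16) was fitted in limma 3.58.1 (R 4.3.3), with 4 group means over all 12 arrays, eBayes with a trend, and Benjamini-Hochberg adjustment over 22746 probe sets. The 64 control probe sets were left out. The p-values measure the spread between these arrays, which the labels call biological replicates. The test was also run on simulated arrays with far fewer changed probe sets than were called here, and nothing is read from that run. Tables and plots used Python 3.11.15, pandas 2.3.3 and matplotlib 3.10.9. Gene symbols came from the platform's probe table, which can be old, and further names and gene neighbours from RefSeq TAIR10.1. Of the probe sets, 13513 had a single gene there. FUS3 itself was not analysed here.

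The members and gene lists were chosen with earlier results of these data known. The lists for NPF and CURT1 genes were added once the members were known. The members named are the 30 with the largest falls and the 3 on each side of the threshold. Also named are the 8 largest falls among ordinary symbols and, from each list, up to 3 called genes with the largest differences. Exceptions named for a count of 5 or fewer, or singled out, were chosen after their values were seen. Other added amounts, scalings, a filter, a fit without the trend, the replicate number as a block and leaving out each array were tried. The search for promoter motifs was not run, since no sequence was used here.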

Additional observations from a re-analysis of the deposited data

Results flagged for a closer look

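For these genes the difference between FUS3 and WT depended on sucrose, by the interaction in limma at an adjusted p under 0.05. They come from the list genes named for their difference with sucrose, which is a part of the interaction. Over all tested probe sets 23.1% were called. Not called were TUB1 at -0.05 (adjusted p = 0.828), HON4 at -0.06 (adjusted p = 0.765) and CURT1D at 0.07 (adjusted p = 0.675), named in the same way. The interaction is the log2 difference between FUS3 and WT with sucrose less that without. It was -0.528 for RCA, -1.196 for SBPASE and -0.73 for PRK, the 3 measured Calvin cycle genes. Among chlorophyll synthesis genes it was -0.617 for CHLI2, -0.826 for PORB and -0.865 for CHLM. Wall genes went both ways, with 1.722 for EXPA20, -1.586 for EXPA8 and -1.612 for XTH32. TUB6 had -0.576 and TUA1 -0.471, and the linker histone gene HIS1-3 had 1.352. The NPF relatives had -0.958 (AT1G33440), -1.149 (AT1G68570) and -1.053 (AT1G59740), and CURT1A (AT4G01150) had -0.935.

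Outside the measured genes, the 25S rRNA control had a mean signal of 9915.5 in FUS3 with sucrose, above its level in each of the other 3 groups.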

How the results depend on the processing

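Which genes were members changed with the scaling. The rule took 97 genes with 1 added in place of 16, 85 with 64 added, 87 with array medians subtracted and 107 after quantile normalization, of which 93, 84, 61 and 88 were members. Leaving out each array gave 87 to 100. The median difference stayed between -1.16 and -1.07 under the other added amounts and scalings, and between -1.14 and -1.08 without each array with sucrose, since those without sucrose do not enter it. Of 19 alternatives 10 can change a member's difference, and of the 930 values under these 4 moved by more than the replicate SD and 0 reversed. The rule selected large differences of 1 sign, so nothing is read from the 0 reversed. Subtracting array medians moved the all-gene median of the sucrose difference by -0.15 in WT and in FUS3. FUS3 against WT without sucrose gave 3758 calls, and from 2418 to 4018 without each array in turn. Without replicate 1 of WT without sucrose it gave 2418, and the cause was not tested. Neighbours of members gave 17 to 24 lower and 11 to 17 higher calls under settings applied after the count was seen.

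The arrays share replicate numbers across groups. Over 18 same-numbered pairs the correlation of deviations over all probe sets was -0.007 to 0.111, mostly above 0, with 1 over 0.1. The members' mean deviation had 1 sign in all 4 groups for numbers 2 and 3. Whether arrays of 1 number shared a batch was not tested. With the replicate number as a block, the counts were 8959 for FUS3 with sucrose, 3974 without, 6124 for sucrose in WT, 9132 in FUS3 and 5550 for the interaction. Without the block they were 8761, 3758, 5919, 8939 and 5253. Precision is limited by 3 arrays a group. Sequence was not used here, so the planned promoter search was not run.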
